A study of Saccharomyces cerevisiae with 78 samples.

Results

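The 7 genes described here are *MFA1*, *MFA2*, *MF(ALPHA)1*, *MF(ALPHA)2*, *STE3*, *MATALPHA1* and *SST2*, the pheromone and mating-type genes of *Saccharomyces cerevisiae* whose ratios stood out on splicing-sensitive microarrays of intron deletion mutants. They are 7 of the 982 genes that the array annotation names. Each has 1 feature of 6 spots among the 1457 features that carry 1 gene symbol. They were chosen for their measured mutant over wild-type ratios, so those ratios are given as a description with no test. All 7 symbols matched the yeast gene table, as YDR461W (*MFA1*), YNL145W (*MFA2*), YPL187W (*MF(ALPHA)1*), YGL089C (*MF(ALPHA)2*), YKL178C (*STE3*), YCR040W (*MATALPHA1*) and YLR452C (*SST2*).

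The 78 arrays compare 17 strains, each lacking the intron of 1 ribosomal protein gene (Δi), with wild type on the same slide, in 39 replicates. Each replicate was hybridized in both dye orientations, once with mutant cDNA in Cy3 and once in Cy5, and its value is the mean of both arrays, or that of 1 array where the other has no spot with a value (12 of the 268 replicate values of these genes). The strains *rpl2b*Δi, *rpl23a*Δi, *rpl34a*Δi, *rpl35a*Δi, *rpl40b*Δi, *rps8a*Δi, *rps9b*Δi, *rps14a*Δi and *rps14b*Δi have 3 replicates, *rpl2a*Δi, *rpl16a*Δi, *rps9a*Δi and *rps21b*Δi have 2, and *rpl24a*Δi, *rpl29*Δi, *rpl31a*Δi and *rps23a*Δi have 1. Mutant and wild-type cells were grown in rich medium (YEPD) at 30 °C. Per the study's methods, a cassette with an I-SceI site took the place of the intron in a diploid and was then cut out so that the exons joined, mutants were recovered as haploid spores, and the wild type shares the parent of the mutant it was compared with. Neither labels nor methods give the mating type of the mutants or of the wild-type cells, or say how many spore clones stand behind a strain. There is no array of wild type against wild type, so the level of these genes between 2 wild-type cultures was not measured. All values are on the log2 scale, as mutant relative to wild type, so 1 means a doubling and a negative value means less RNA in the mutant. A ratio does not show whether the mutant or the wild-type RNA differs from other cultures.

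Budding yeast haploids mate as a cells or α cells. An a cell secretes a-factor, a short lipid-modified peptide encoded by *MFA1* and *MFA2*, and an α cell secretes α-factor, encoded by *MF(ALPHA)1* and *MF(ALPHA)2*. Each type carries a receptor for the pheromone of the other, and the a-factor receptor Ste3 is made by α cells. The mating-type locus decides between them: in α cells *MATALPHA1* encodes an activator of α-specific genes and *MATALPHA2* a repressor of a-specific genes, and silent copies of both mating types are kept at *HML* and *HMR*. Sst2 stimulates the GTPase activity of the receptor-coupled G protein and so dampens the pheromone response in both cell types, and its gene is itself induced by pheromone. Diploids of both mating types together express neither set.

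Each gene has 468 spots over the 78 arrays, of which 463 carried a value for *MFA1*, 466 for *MFA2*, 342 for *MF(ALPHA)1*, 429 for *MF(ALPHA)2*, 436 for *STE3*, 297 for *MATALPHA1* and 444 for *SST2*. Across all genes the arrays lacked between 83 and 3552 of 9216 spots. The first part of the array names divides the replicates into 4 slide batches, called A to D here, with 9 replicates in A, 9 in B, 18 in C and 2 in D, and replicate 1 of *rpl2a*Δi has 1 array in B and 1 in C. The labels do not say what this part of the name stands for. Over all features, the correlation between the 2 dye orientations of a replicate lay between -0.52 and 0.59 (median 0.25). The direction of the ratio was looked at on the gene whose intron was deleted. Its lowest feature, picked from 3 or 4, was below 0 in both dyes in 17 of 17 strains. Picking the lowest favours a value below 0, so the sign alone is a weak check. With the mutant in Cy3 and in Cy5 this feature was at -0.79 and -0.43 in *rpl31a*Δi and at -0.88 and -0.67 in *rpl29*Δi, against -3.58 and -3.12 in *rpl2b*Δi.

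The a-factor genes and the α-specific genes lay on opposite sides of 0. *MFA2* lay at or below -1 in 23 of 39 replicates and *MFA1* in 23. *MF(ALPHA)1* lay at or above 1 in 23 of 38 replicates, *MF(ALPHA)2* in 21 of 39, *STE3* in 22 of 39 and *MATALPHA1* in 24 of 35. In 21 replicates all 4 pheromone genes were past 1 together, both a-factor genes lower and both α-factor genes higher, and *STE3* and *MATALPHA1* were also at or above 1 in 21 of these. All 4 pheromone genes lay between -1 and 1, where they had a value, in 13 replicates. By strain mean, 75 of the 118 means of the 7 genes were past 1 in either direction. Over all features and strains 0.328% of strain means were at or above 1 and 0.368% at or below -1, and since the genes were chosen by these ratios nothing is read from that difference.

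**Figure D1:**
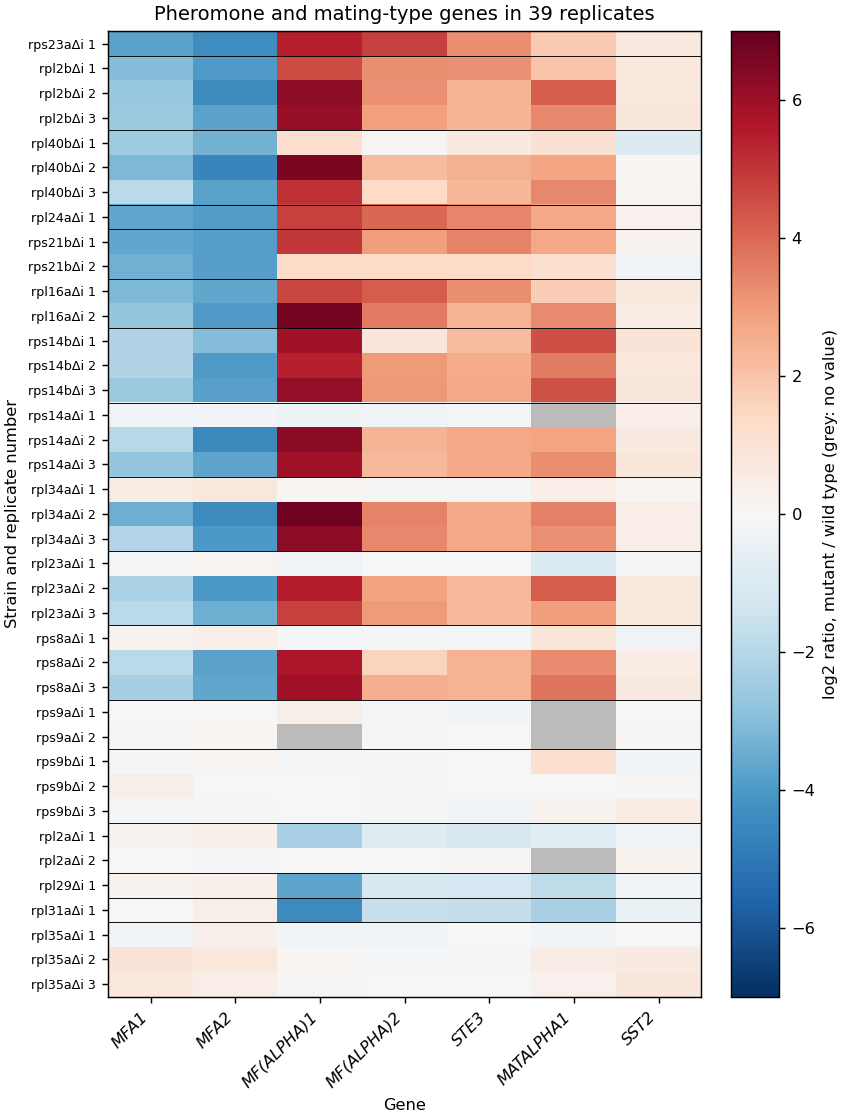
Log2 ratio (mutant over wild type, colour) of the 7 genes (columns) in each of 39 replicates (rows, grouped by strain and ordered by the strain mean of *MFA2*). Grey marks a replicate with no value. Blue *MFA1* and *MFA2* stand beside red *MF(ALPHA)1*, *MF(ALPHA)2*, *STE3* and *MATALPHA1* in most rows of the upper part, and *SST2* stays pale throughout.

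*MFA2* encodes a precursor of a-factor and is the member with the most complete data. In *rpl2b*Δi its log2 ratio was -3.94, -4.47 and -3.77, in *rpl40b*Δi -3.32, -4.65 and -3.76, and in *rps14b*Δi -3.04, -3.95 and -3.80. It was -3.64 and -3.97 in *rpl16a*Δi and -3.84 and -3.85 in *rps21b*Δi. The single replicates of *rps23a*Δi and *rpl24a*Δi were at -4.33 and -3.89. In these 7 strains every replicate was lower than wild type. The mean of *rpl2b*Δi, -4.06 ± 0.37 (SD, n = 3), is a 16.7-fold lower level, and the mean of *rps14b*Δi, -3.59 ± 0.49 (SD, n = 3), a 12.1-fold lower level. Neighbours in the order of these 7 means were 0.01 to 0.26 apart, and their replicate ranges overlapped in each case except *rpl24a*Δi and *rps21b*Δi, at -3.89 and -3.85.

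**Figure D2:**
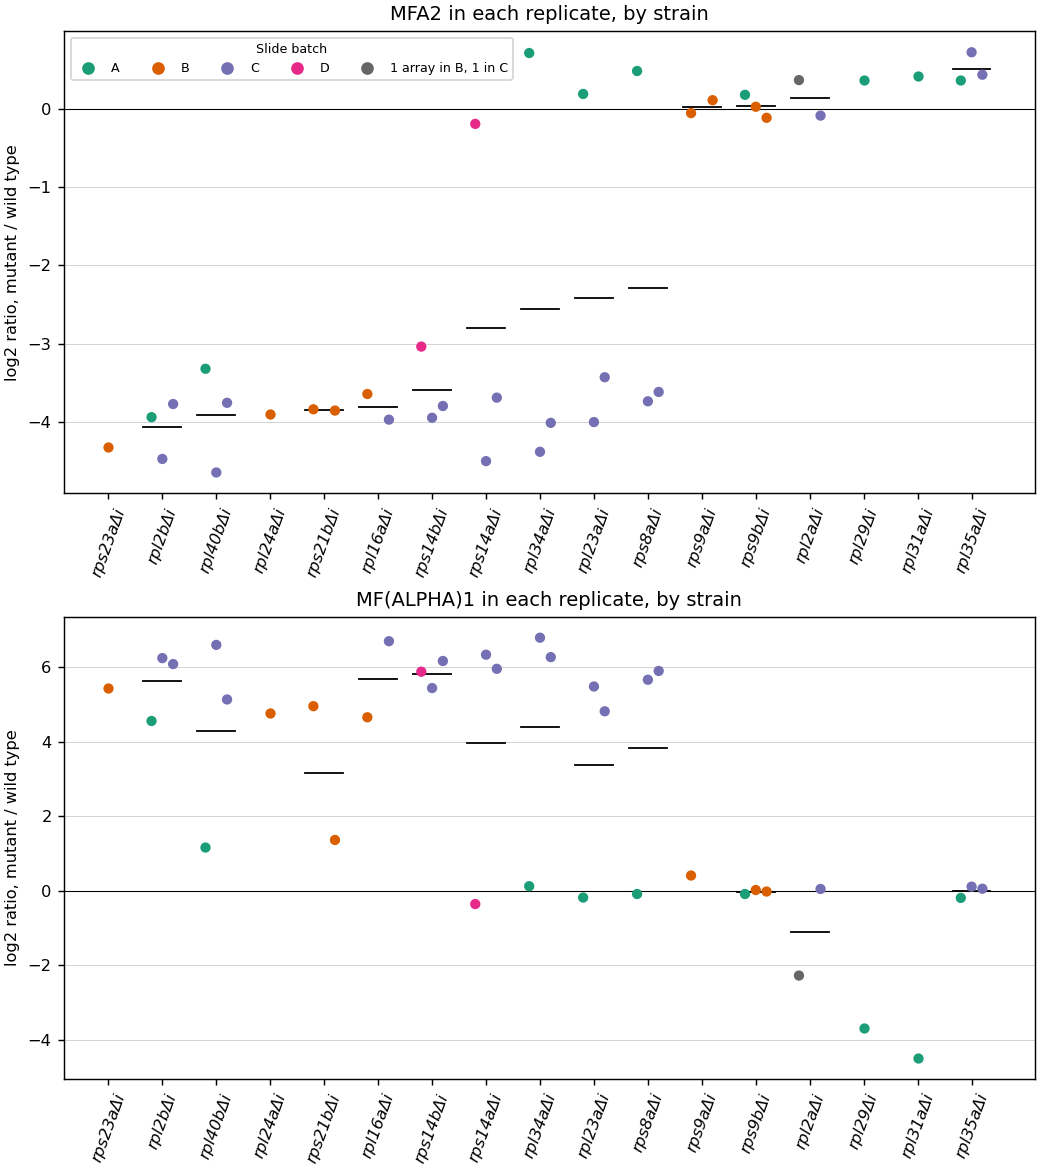
Log2 ratio of *MFA2* (top) and *MF(ALPHA)1* (bottom) in each replicate (points, coloured by slide batch) for the 17 strains, ordered by the mean of *MFA2*. Bars are strain means where there is more than 1 value. In *rpl23a*Δi, *rpl34a*Δi, *rps8a*Δi and *rps14a*Δi replicate 1 lies near 0 while replicates 2 and 3 lie between -4.50 and -3.43 for *MFA2*.

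In 4 strains the replicates of *MFA2* lay far apart. In *rpl23a*Δi replicate 1 was at 0.19 and the other replicates were at -4.00 and -3.43. In *rpl34a*Δi the values were 0.72, -4.38 and -4.01, in *rps8a*Δi 0.49, -3.74 and -3.62, and in *rps14a*Δi -0.19, -4.50 and -3.69. The SD over replicates was 2.27 in *rpl23a*Δi, 2.84 in *rpl34a*Δi, 2.40 in *rps8a*Δi and 2.29 in *rps14a*Δi, against 0.68 or less in the other strains with 2 or 3 replicates. Their strain means, from -2.79 to -2.29, therefore describe no replicate. Replicate 1 is in slide batch A in *rpl23a*Δi, *rpl34a*Δi and *rps8a*Δi and in batch D in *rps14a*Δi, and replicates 2 and 3 are in batch C in all 4. Within these strains batch and replicate cannot be told apart. Batch A also holds replicate 1 of *rpl2b*Δi, at -3.94, and batch D replicate 1 of *rps14b*Δi, at -3.04. Batch C also holds 3 replicates in which *MFA2* was not lower, at -0.08 in *rpl2a*Δi and at 0.73 and 0.44 in *rpl35a*Δi. Each batch with more than 1 replicate thus had *MFA2* both at or below -1 and near 0, in 2 of 9 replicates in A, 5 of 9 in B, 15 of 18 in C and 1 of 2 in D.

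The remaining 6 strains had *MFA2* between -1 and 1 in every replicate. It was -0.05 and 0.11 in *rps9a*Δi and 0.18, 0.03 and -0.11 in *rps9b*Δi. In *rpl2a*Δi it was 0.37 and -0.08. The single replicates of *rpl29*Δi and *rpl31a*Δi were at 0.37 and 0.42. *rpl35a*Δi had the highest mean, 0.51 ± 0.19 (SD, n = 3), a 1.42-fold higher level, and its 3 replicates were all above 0. The distance between the mean of *rps8a*Δi and that of *rps9a*Δi, the next strain in order, was 2.32, but the ranges overlap because replicate 1 of *rps8a*Δi was near 0.

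*MFA1*, the other a-factor gene, followed *MFA2* with smaller ratios. Its replicates were at -3.04, -2.65 and -2.62 in *rpl2b*Δi, at -2.47, -3.12 and -1.86 in *rpl40b*Δi and at -2.09, -2.12 and -2.61 in *rps14b*Δi. They were at -3.16 and -2.70 in *rpl16a*Δi and at -3.64 and -3.38 in *rps21b*Δi. The lowest value was that of *rps23a*Δi, -3.72, a 13.2-fold lower level, and *rpl24a*Δi was at -3.65. The a-factor genes lay together in the strains with divided replicates as well: in *rpl23a*Δi *MFA1* was at -0.07 in replicate 1 and at -2.20 and -1.88 in the other replicates. *MFA2* was lower than *MFA1* in 23 of the 23 replicates with both at or below -1. The size of a ratio also depends on how each probe responds, and the sequences of both genes are alike, so cross-hybridization between their probes was not tested. At the upper end stood *rpl35a*Δi, where *MFA1* was at -0.20, 0.92 and 0.72.

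*MF(ALPHA)1* encodes the main precursor of α-factor and had the largest SD over replicates of all features with at least 20 values, 3.31 (n = 38), with values from -4.48 to 6.78. In *rps14b*Δi it was at 5.87, 5.43 and 6.16, in *rpl2b*Δi at 4.55, 6.24 and 6.08, and in *rpl16a*Δi at 4.65 and 6.69. The mean of *rps14b*Δi, 5.82 ± 0.37 (SD, n = 3), is a 56.6-fold higher level. *rps23a*Δi was at 5.43 and *rpl24a*Δi at 4.78. *MF(ALPHA)1* was thus more abundant than in wild type in each replicate of these strains, all of which had lower *MFA2*. In the strains with divided replicates the division was the same: *rpl34a*Δi was at 0.12 in replicate 1 (2 spots of 1 array) and at 6.78 and 6.26 in the other replicates, *rpl23a*Δi at -0.18, 5.48 and 4.81, *rps8a*Δi at -0.08, 5.66 and 5.89, and *rps14a*Δi at -0.35, 6.33 and 5.95. The -0.18 of *rpl23a*Δi and -0.35 of *rps14a*Δi each rest on 1 spot per array, with the dyes of opposite sign. Replicate 2 of *rpl16a*Δi, *rpl2b*Δi and *rps14b*Δi has 1 spot with the mutant in Cy3 and 6 in Cy5.

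Of the 6 strains with *MFA2* near 0, 3 had *MF(ALPHA)1* means between -1 and 1. It was at -0.08, 0.02 and -0.02 in *rps9b*Δi and at -0.19, 0.11 and 0.06 in *rpl35a*Δi. The 1 value of *rps9a*Δi, 0.41, rests on 1 spot of 24. In *rpl29*Δi and *rpl31a*Δi *MF(ALPHA)1* was at -3.67 and -4.48, which are 12.7-fold and 22.3-fold lower levels. Both strains have 1 replicate, both in batch A. Both dye orientations gave the low value, at -3.98 and -3.35 in *rpl29*Δi and at -4.68 and -4.27 in *rpl31a*Δi, with all 6 spots present on each array. The a-factor genes were not correspondingly higher, since *MFA1* was at 0.26 and 0.02 there. Of the 3 replicates with *MF(ALPHA)1* at or below -1, 0 had an a-factor gene at or above 1.

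The third of these is replicate 1 of *rpl2a*Δi, whose arrays disagree. With the mutant in Cy3 (batch B) *MF(ALPHA)1* was at -4.81, and with the mutant in Cy5 (batch C) at 0.27. The same array with the mutant in Cy3 had *STE3* at -2.19, *MF(ALPHA)2* at -1.60 and *MFA2* at 0.97, and the array with the mutant in Cy5 had them at -0.07, -0.06 and -0.23. Replicate 2 of *rpl2a*Δi had *MF(ALPHA)1* at 0.05. The negative strain mean of *MF(ALPHA)1* in *rpl2a*Δi, -1.11 ± 1.64 (SD, n = 2), rests on that single array, and without replicate 1 the value is 0.05.

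**Figure D3:**
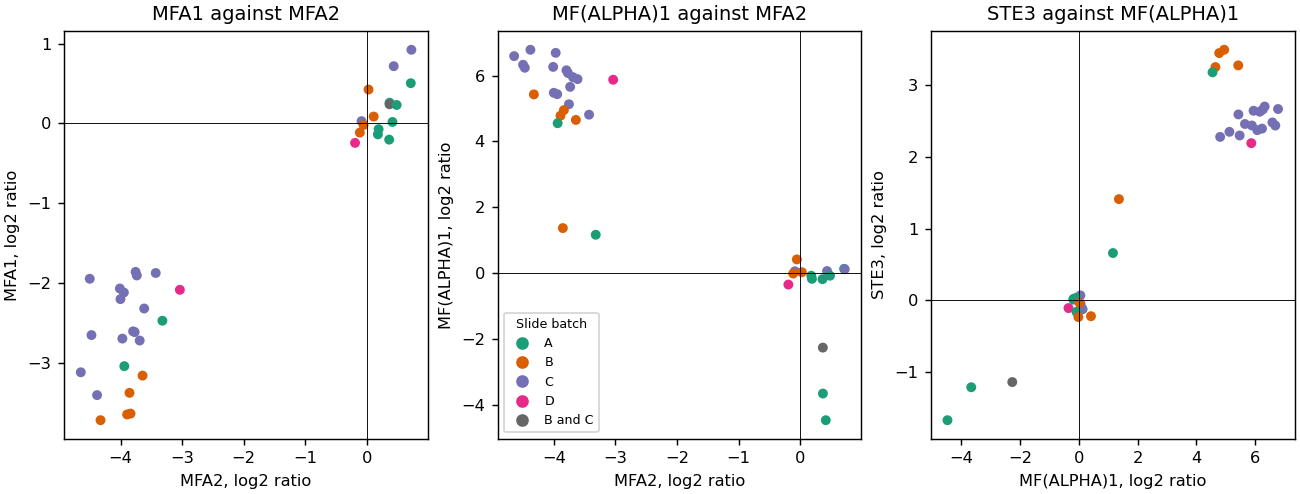
Log2 ratios of 3 pairs of genes over the replicates with both values (points, coloured by slide batch). The replicates form a group with low *MFA2* and high *MF(ALPHA)1* and a group near 0. At the positive end *MF(ALPHA)1* at 1.16 (*rpl40b*Δi replicate 1) and 1.36 (*rps21b*Δi replicate 2) lies between them, and *MF(ALPHA)1* is below -2 in 3 replicates with *MFA2* above 0.

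In 2 replicates the a-factor genes were as low as in the rest while the α-factor genes were less high. Replicate 1 of *rpl40b*Δi had *MFA2* at -3.32 and *MFA1* at -2.47, while *MF(ALPHA)1* was at 1.16, *STE3* at 0.66, *MF(ALPHA)2* at 0.19 and *SST2* at -0.98. Its *MF(ALPHA)1* was at 6.59 and 5.13 in replicates 2 and 3. Replicate 2 of *rps21b*Δi had *MFA2* at -3.85, as low as the -3.84 of replicate 1, but *MF(ALPHA)1* at 1.36 against 4.95. *STE3* was at 1.41 there against 3.49, and *MATALPHA1* at 1.12 against 2.69. All 4 arrays of these 2 replicates placed *MF(ALPHA)1* between 0.79 and 1.64, with 5 or 6 spots each, so the intermediate value is not a mean of unlike arrays. Both replicates of *rps21b*Δi are in batch B.

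*MF(ALPHA)2*, the second α-factor gene, was at or above 1 in 21 of the 23 replicates in which *MF(ALPHA)1* was. It was at 3.28, 3.23 and 2.88 in *rpl2b*Δi, the first from 3 spots of 1 array, and at 4.23 and 3.62 in *rpl16a*Δi, and its highest value was 4.79 in *rps23a*Δi, from the 6 spots of 1 array. *MF(ALPHA)1* had the larger ratio in 20 of the 21 replicates in which both α-factor genes were at or above 1. The *rps14b*Δi replicates stood apart from each other, at 0.87, 2.98 and 3.06, although *MF(ALPHA)1* was high in all 3. At the low end *rpl31a*Δi was at -1.59 and *rpl29*Δi at -1.11, the second from 1 array, with the mutant in Cy5.

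*STE3*, the a-factor receptor gene of α cells, lay between 2.19 and 3.17 in *rpl2b*Δi and *rps14b*Δi, with means of 2.64 ± 0.46 (SD, n = 3) and 2.47 ± 0.24 (SD, n = 3). Its highest values came from batch B, 3.49 in *rps21b*Δi replicate 1, 3.44 in *rpl24a*Δi, 3.27 in *rps23a*Δi and 3.25 in *rpl16a*Δi replicate 1. In batch C no value exceeded 2.70. *rpl16a*Δi shows the step within a strain, with 3.25 in batch B and 2.43 in batch C, and *rpl2b*Δi likewise with 3.17 in batch A and 2.39 and 2.37 in C. In *rpl31a*Δi and *rpl29*Δi *STE3* was at -1.67 and -1.21, and in *rps9a*Δi, *rps9b*Δi and *rpl35a*Δi all replicates lay between -0.23 and 0.04.

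*MATALPHA1*, which encodes the activator of α-specific genes, had the most missing spots, 63.5% with a value, and has none in *rps9a*Δi. Its highest mean was in *rps14b*Δi, 4.19 ± 0.50 (SD, n = 3), an 18.3-fold higher level, with replicates at 4.48, 3.61 and 4.48, the first from the array with the mutant in Cy3 alone. In *rpl2b*Δi it was at 1.99, 4.18 and 3.34. It was at 1.74 and 3.31 in *rpl16a*Δi, so here batch C held the higher value. The lower values were -2.28 in *rpl31a*Δi, from 12 of 12 spots, and -1.77 in *rpl29*Δi, from 9 of 12. Among replicates with *MFA2* near 0, the 1.16 of *rps9b*Δi replicate 1 and the -0.97 of *rpl23a*Δi replicate 1 each come from 1 spot on 1 array. The same sequence lies at *MAT* and at the silent locus *HML*, so the feature cannot tell the copies apart.

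*SST2*, the regulator of the pheromone response in both cell types, had the smallest ratios. All 39 replicates lay between -0.98 and 0.89, and by its SD over replicates it ranked 87 among all features. In *rps14b*Δi it was at 0.89, 0.75 and 0.79, a mean of 0.81 ± 0.07 (SD, n = 3) or 1.75-fold, and in *rpl2b*Δi at 0.74, 0.69 and 0.78. Of the 21 replicates with all 4 pheromone genes past 1, *SST2* was above 0 in 20. It also went with the slide batch: the 18 replicates of batch C were all above 0, between 0.15 and 0.80, and the 9 of batch A had a median of -0.20. Batch C includes replicates 2 and 3 of *rpl35a*Δi, at 0.64 and 0.80, in which the α-factor genes were near 0. In the same *rpl35a*Δi replicates *MFA1* was at 0.92 and 0.72 and *MFA2* at 0.73 and 0.44, against -0.20 and 0.36 in replicate 1 in batch A, where *SST2* was at 0.00. The part of the batch in these values was not tested.

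The genes were chosen by the mean of both dye orientations, and the difference between the orientations was tested with limma as a dye effect, which is 0.5 times the difference between the array with the mutant in Cy5 and the array with it in Cy3, so that it is the distance of either array from their mean. A dye effect was called for 3 of the 7 genes, all higher with the mutant in Cy5, against 69.1% of all features (1007 of 1457) in either direction and 33.2% higher in Cy5, so a call is common on these arrays. For *STE3* the mean was 1.57 with the mutant in Cy5 and 1.16 in Cy3, a dye effect of 0.20 ± 0.05 (SE, limma adjusted p = 0.000586), above 0 in 31 of 39 replicates. For *MF(ALPHA)1* it was 3.43 against 2.75, a dye effect of 0.34 ± 0.09 (SE, limma adjusted p = 0.00109), above 0 in 28 of 36. These means include replicate 1 of *rpl2a*Δi, whose arrays are in different batches. Without it the dye effect was 0.18 for *STE3* and 0.28 for *MF(ALPHA)1*, and with slide batch as a block 0.27 and 0.65, called in each case. *MFA1* had a dye effect of 0.13 ± 0.05 (SE, limma adjusted p = 0.0277). With slide batch as a block the dye effect of *MFA1* was 0.11 and was no longer called, and with complete features only neither it, at 0.09, nor *MF(ALPHA)1*, at 0.11, was called. The dye effect may not be free of the ratio that chose the genes. In batch C that of *STE3* was 0.04 to 0.10 in the 3 replicates with *STE3* near 0. In the 15 replicates of batch C with *STE3* at or above 1 it ran from 0.08 to 0.76. The lowest was *rpl2b*Δi replicate 2, with *STE3* at 2.39, and the highest *rpl34a*Δi replicate 3, with *STE3* at 2.66. The calls are therefore not read as separate evidence about these genes. The other 4 genes were not called, with limma adjusted p = 0.0565 for *MFA2*, 0.562 for *SST2*, 0.57 for *MATALPHA1* and 0.943 for *MF(ALPHA)2*. *SST2* was called with slide batch as a block, at 0.10 (limma adjusted p = 0.0076). That fit weights *rpl2a*Δi replicate 1, at 0.42, and the 2 replicates of batch D, with a mean of 0.215, like the larger batches. The dye effect of *SST2* was -0.18 in batch A, above 0 in 2 of 9 replicates, 0.07 in batch B, above 0 in 9 of 9, and -0.03 in batch C, above 0 in 7 of 18. *MFA2* was called when any 1 of several replicates was left out, with limma adjusted p down to 0.0198 without *rpl2a*Δi replicate 1.

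The dye effect of *STE3* and *MF(ALPHA)1* lay mostly in batch C. There the dye effect of *STE3* was 0.39 ± 0.22 (SD, n = 18), above 0 in 18 of 18 replicates, while in batch A it was 0.06 ± 0.25 (SD, n = 9) and in batch B -0.04 ± 0.29 (SD, n = 9). For *MF(ALPHA)1* it was 0.48 ± 0.32 (SD, n = 18) in batch C, above 0 in 17 of 18. The sign of both orientations was compared in the replicates past 1 with a value in both dyes. It was the same in 23 of 23 for *MFA1*, 23 of 23 for *MFA2*, 19 of 19 for *MF(ALPHA)2*, 25 of 25 for *STE3* and 24 of 24 for *MATALPHA1*. For *MF(ALPHA)1* it was the same in 25 of 26, and the exception is the replicate of *rpl2a*Δi described above. In replicates with a mean past 1 a dye effect below 1 cannot turn the sign of either array. These counts are therefore largely set by the cut and are no separate evidence.

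**Figure D4:**
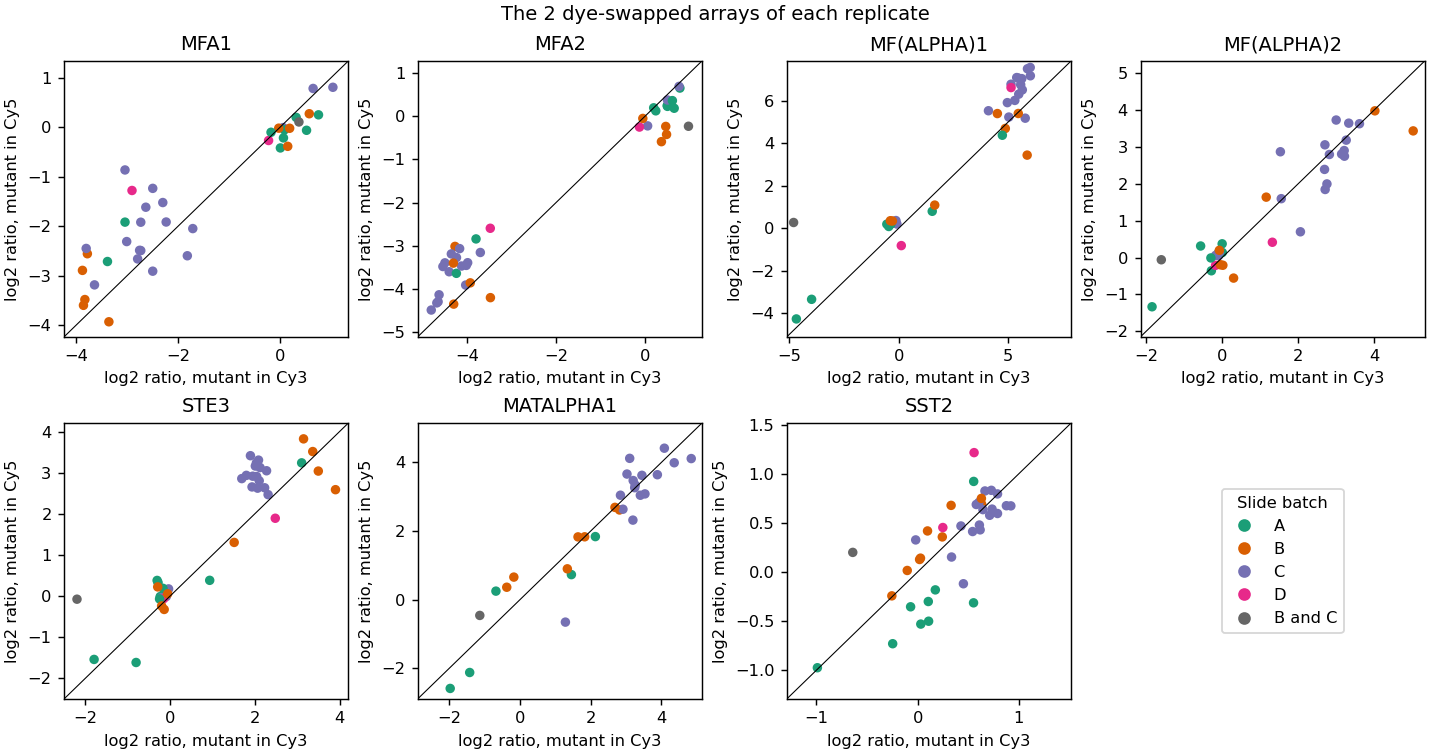
For each gene, the log2 ratio with the mutant in Cy3 (x axis) against that with the mutant in Cy5 (y axis), 1 point per replicate, coloured by slide batch; the line marks equal values. Batch C points of *STE3* and *MF(ALPHA)1* lie above the line at high ratios, and the grey point is replicate 1 of *rpl2a*Δi, at -4.81 and 0.27 for *MF(ALPHA)1*.

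Other genes of the pathway were taken from lists of pheromone processing, receptors and signalling, pheromone-induced genes, and mating-type loci with silencing and switching. Of the 78 genes listed, 20 carry features with 1 symbol here, 22 in all, and the 12 genes of pheromone processing and the a-specific receptor gene *STE2* are not among them. Neither are the 9 genes listed as markers of strain construction. Each strain mean was tested against 0 with limma over all features. Of 373 tests, 4 were called higher and 3 lower, and over all features 0.49% of tests were called higher and 0.494% lower. The median strain mean of the listed genes was 0.00. Signalling genes had 1 call each way among 6 genes, and the pheromone-induced genes *KAR4* and *TEC1* had 0 calls in limma.

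*MATALPHA2*, which encodes the repressor of a-specific genes, and *HMRA2*, of the silent a copy, were the closest to the α-specific genes. Both features read related sequence, since the a2 gene repeats part of α2, so they cannot be told apart. *MATALPHA2* was at 1.38, 1.42 and 1.15 in *rpl2b*Δi and rose there by 1.31 ± 0.31 (SE, limma adjusted p = 0.0262), and *HMRA2* was at 1.23, 1.68 and 1.07 and rose by 1.33 ± 0.32 (SE, limma adjusted p = 0.0262). *MATALPHA2* was at or above 1 in 18 of 39 replicates and *HMRA2* in 19. In *rpl2b*Δi 0.618% of all features were called higher. In the fit with 1 mean per strain neither gene was called in another strain. With replicate number as a block *HMRA2* was called in 4 strains and *MATALPHA2* in 3. Over the strains the *HMRA2* mean ran from -0.48 to 1.55. It was 1.40 in *rpl16a*Δi (limma adjusted p = 0.108) and 1.20 in *rps14b*Δi (limma adjusted p = 0.0703), near that of *rpl2b*Δi but not called. With the mutant in Cy3 only *HMRA2* was called in 3 strains and *MATALPHA2* in 2, and in Cy5 only in 2 and 1. The residual SD of the fit was 0.54 for *MATALPHA2* and 0.55 for *HMRA2* against a median of 0.16 over all features, since the strains with divided replicates enter that estimate. Leaving out any 1 replicate of *rpl2b*Δi ended both calls, with limma adjusted p from 0.127 to 0.22 for *MATALPHA2* and from 0.119 to 0.282 for *HMRA2*. Within the divided strains these genes divided as the members did: *MATALPHA2* was at 0.17, 2.07 and 1.22 in *rpl23a*Δi and at -0.13, 1.66 and 1.39 in *rpl34a*Δi.

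**Figure D5:**
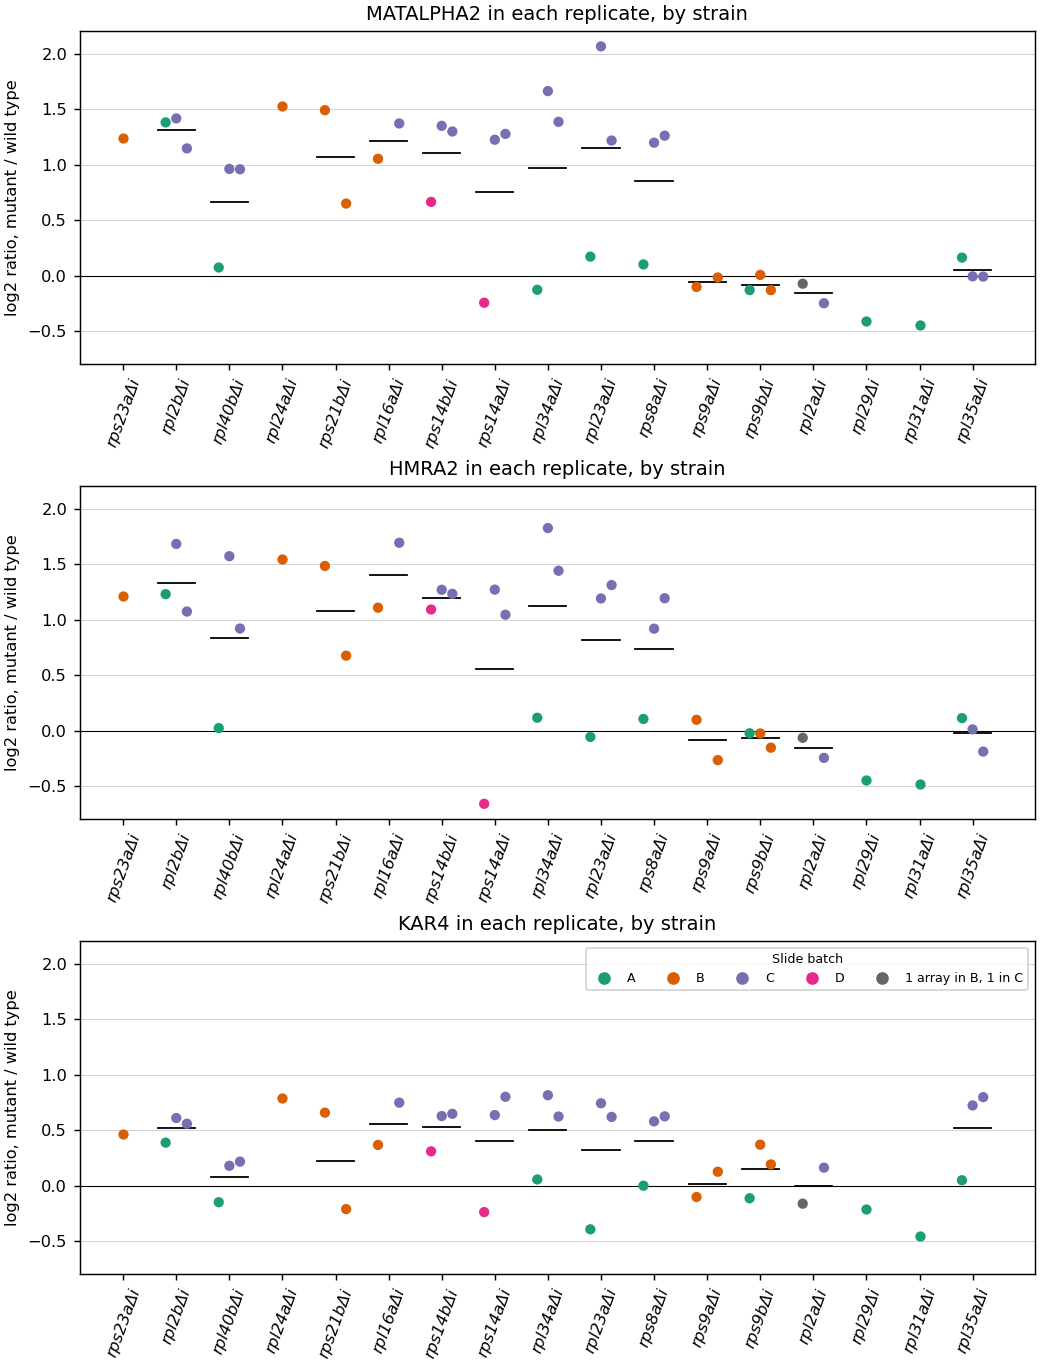
Log2 ratio of *MATALPHA2*, *HMRA2* and *KAR4* in each replicate (points, coloured by slide batch; bars are strain means), with strains in the order of the *MFA2* mean. *MATALPHA2* reaches 2.07 and *HMRA2* 1.83 in the strains on the left, and *KAR4* stays at or below 0.82 and is high in *rpl35a*Δi as well.

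The remaining calls were smaller. *FUS3*, the MAP kinase of the mating response, rose in *rpl34a*Δi, where it was at 0.55, 0.62 and 0.61, with a mean of 0.59 ± 0.12 (SE, limma adjusted p = 0.017), and replicate 1, where *MFA2* was not lower, had much the same level as the others. Of all features 0.549% were called higher in that strain. With the slide batch as a term it was at 0.46 and not called (limma adjusted p = 0.0656), nor was it without replicate 2 of *rpl34a*Δi, at 0.58 (limma adjusted p = 0.12). In *rpl40b*Δi *MCM1*, a cofactor of both mating-type regulators, fell by 0.47 ± 0.11 (SE, limma adjusted p = 0.00725), at -0.60, -0.39 and -0.41, and an *HMRA1* feature fell by 0.32 ± 0.08 (SE, limma adjusted p = 0.0162). The other *HMRA1* features were not called in that strain, at -0.19 (limma adjusted p = 0.0612) and -0.31 (limma adjusted p = 0.387, n = 2). *SWI4*, which encodes a G1 transcription factor, rose there by 0.57 ± 0.12 (SE, limma adjusted p = 0.00284), but its replicates were at -0.03, 1.19 and 0.54. In that strain 5.49% of all features were called higher and 2.68% lower. Without replicate 2 of *rpl40b*Δi *SWI4* was at 0.26 (limma adjusted p = 0.23) and *MCM1* at -0.50 (limma adjusted p = 0.0681). The *HMRA1* call ended without any 1 of the 3 replicates, and also with the slide batch as a term, at -0.25 (limma adjusted p = 0.109). *SWI5*, which encodes an activator of the mating-type switching gene *HO*, fell in *rps9a*Δi by 0.40 ± 0.09 (SE, limma adjusted p = 0.0126), at -0.33 and -0.46, where 1.65% of all features were called lower, and its call ended without either replicate and when the slide batch entered the fit (limma adjusted p = 0.256). Among single-dye fits, *MCM1* in *rpl40b*Δi was at -0.08 with the mutant in Cy5 (limma adjusted p = 0.84), *FUS3* at 0.44 (limma adjusted p = 0.298) in Cy5 and the *HMRA1* feature at -0.17 (limma adjusted p = 0.515) in Cy3. With complete features only, *SWI4* was at -0.03 in *rpl40b*Δi (limma adjusted p = 0.937).

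*KAR4*, which encodes a transcription factor of nuclear fusion, lay above 0 in 30 of 39 replicates and was not called in any strain. It was at 0.39, 0.61 and 0.56 in *rpl2b*Δi and at 0.06, 0.82 and 0.62 in *rpl34a*Δi. In *rpl35a*Δi, whose α-specific genes were near 0, it was at 0.05 in batch A and at 0.72 and 0.80 in batch C. Of the 2 meiotic genes measured, *IME1* has 1 feature and *NDT80* has 2. Of the *NDT80* features, 1 fell in *rps9a*Δi by 1.98 ± 0.51 (SE, limma adjusted p = 0.0483, n = 2), where neither the other *NDT80* feature nor *IME1* had a value, and there was no other call.

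The genes whose ratios followed the members most closely in the same direction were sought among 1450 other features by Pearson's r over replicates, as a description, since the replicates share slide batches and fall into separate groups. With *MF(ALPHA)1* these were *HMRA2* (r = 0.94, Spearman's rho = 0.86, n = 38), *MATALPHA2* (r = 0.92, rho = 0.79), *KAR4* (r = 0.76, rho = 0.69), *IRC3* (r = 0.63, rho = 0.77) and *POM152* (r = 0.61, rho = 0.51). With *MFA2* they were *HOP2* (r = 0.75, rho = 0.65, n = 38), *RPS7B* (r = 0.66, rho = 0.60), a second *HMRA1* feature (r = 0.61, rho = 0.57), *CBT1* (r = 0.60, rho = 0.51) and *RGM1* (r = 0.58, rho = 0.51). In the opposite direction *HMRA2* (r = -0.915) and *MATALPHA2* (r = -0.911) lay closer to *MFA2* than any of these, and with *MF(ALPHA)1* the strongest were *CBT1* (r = -0.704) and *HOP2* (r = -0.673). The ratios behind the *MFA2* list were small, with *HOP2*, a gene of meiotic recombination, between -0.92 and 0.29 and *RPS7B*, a ribosomal protein gene, between -0.28 and 0.40. Among the members r ran from 0.95 between *MFA1* and *MFA2* (n = 39) to -0.93 between *MFA2* and *STE3*, and it was smallest in size for *SST2*, -0.36 with *MFA1* and -0.47 with *MFA2*.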

How the data were processed

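RNA of mutant and wild-type cells was isolated with acid phenol, labelled through aminoallyl-dUTP during cDNA synthesis and hybridized to 2-colour arrays. With marray and limma, following Goulphar, the authors normalized the spots and deposited log2 ratios of mutant over wild type for both dye orientations. Labels and methods do not state the background correction, spot filters or versions, and intensities were not used here, so dim spots could not be set apart. The 78 arrays are 39 dye-swapped replicates, 1 to 3 per strain, which limits the precision.

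The 6 spots of a feature, found from the printing layout, were averaged, as were both dye orientations, which left 39 values per feature. Of 9216 spots, 8742 carry 1 symbol, 0 several and 474 none. The kind of probe (exon, junction or intron) was not used. Other mating genes were analysed in R 4.3.3 by limma 3.58.1 (lmFit, eBayes), with 1 mean per strain, 22 residual degrees of freedom and Benjamini-Hochberg adjustment over the features of a strain at a threshold of 0.05. Strains with 1 replicate are assumed to vary like the others. The dye difference was fitted as 1 mean over replicates. On simulated data for *rpl2b*Δi (1457 features) 87% of changes of 0.5 and 98% of changes of 1 were recovered, with 5 false calls. There 100 features of each size were changed, all without missing values, in independent noise with no batches or divided replicates. In the data 9 features were called higher in *rpl2b*Δi. With more changed features the adjustment is milder, so these shares do not give the recovery in the data. The sources used here do not say that replicates are separate cultures, so p-values measure the spread between these samples, which may be technical.

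The members and gene lists were chosen with earlier results of these data known. Genes named are the 7 members, list genes called in a strain, and the 5 features with the highest Pearson's r with *MFA2* and with *MF(ALPHA)1*. *TEC1*, *IME1* and *NDT80* were named after their values were seen. Alternatives were the median of spots, centred arrays, either dye alone, complete features, slide batch or replicate number as a block, robust eBayes, own replicates only, single-feature genes, each array as a replicate, thresholds of 0.5 and 2, and leaving out each replicate. Names were checked in the yeast gene table of RefSeq, and no coordinates or sequences are given. Other steps ran in Python 3.11.15 (pandas 2.3.3, numpy 2.4.6, matplotlib 3.10.9).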

Additional observations from a re-analysis of the deposited data

Results flagged for a closer look

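No strain has 4 or more replicates, so single samples far from their group were not searched for. In some pairs of strains with at least 2 values each, every replicate of 1 strain lay above 0 and every replicate of the other below 0. This held for 7 strain pairs for *MFA1*, 6 for *MFA2* and 14 for *MF(ALPHA)2*, and for 0 pairs for *MF(ALPHA)1*, *STE3*, *MATALPHA1* and *SST2*. Only the sign counts here, so values near 0 enter, such as *MF(ALPHA)2* in *rps9a*Δi, at -0.095 and -0.121. For *MF(ALPHA)1* no strain with at least 2 values was below 0 throughout. Its replicates in *rps14b*Δi, from 5.43 to 6.16, and in *rps9b*Δi, from -0.08 to 0.02, still did not overlap. For *MFA2* the strain above 0 was *rpl35a*Δi in each pair, against the 6 strains with at least 2 values, all below 0. These 6 include *rps14a*Δi, a strain with divided replicates, whose replicate 1 was at -0.19. Among the other genes such opposite pairs numbered 14 for *MATALPHA2*, 14 for *HMRA2*, 8 for *MCM1*, 7 for *FUS3*, 7 for the *HMRA1* feature, 7 for *SWI5* and 4 for *SWI4*. These differences between strains were not tested. The share of all features with such pairs was not computed, so nothing is read from the counts.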

How the results depend on the processing

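Of the 118 strain means of the 7 genes, 75 were past 1, and between 62 (complete features) and 75 under the other settings. Complete features leave 99 means, of which 0 were no longer past 1. Leaving out 1 replicate gave 69 to 76, where a strain with 1 replicate drops out of the count. The 21 replicates with all 4 pheromone genes past 1 were 22 at a threshold of 0.5, 16 at 2, 20 with the mutant in Cy3 only and 18 in Cy5 only, and 20 to 21 with 1 replicate left out. The mean of *MF(ALPHA)1* in *rpl2a*Δi turned to 0.24 with the mutant in Cy5 only and to 0.051 without its replicate 1, which is the replicate on slides of 2 batches (-2.27 to 0.051 with 1 replicate left out). With slide batch as a block the means of *MATALPHA1* turned to 0.52 in *rpl29*Δi and 0.0089 in *rpl31a*Δi, strains with 1 replicate each, and those of *MFA2* to -0.56 and -0.52 from 0.37 and 0.42; in all, 13 of 118 means changed sign under it, 6 came past 1, among them *MFA2* in *rpl2a*Δi at 1.17, and 6 were no longer past 1. With replicate block 12 changed sign, 1 came past 1 and 5 were no longer past it. The 7 calls among other mating genes became 12 with replicate block (*HMRA2* in 4 strains, *MATALPHA2* in 3), 31 with the mutant in Cy3 only, 4 with complete features only and 18 with each array as a replicate, and 4 to 12 with 1 replicate left out, 12 without *rpl34a*Δi replicate 1 and 4 without *rpl40b*Δi replicate 2; the cause was not tested, except that complete features leave fewer values. Dye differences were called for 1 gene with strain means of equal weight or with complete features only, against 3, and for 2 to 4 with 1 replicate left out. Those not called turned sign for *MFA2* (-0.041), *SST2* (0.10) and *MF(ALPHA)2* (0.10) with slide batch as a block. For *MF(ALPHA)2* the sign also turned with complete features (0.039) and with 1 replicate left out (-0.028 to 0.019). In the dye fit the batch block counts replicate 1 of *rpl2a*Δi as a batch of its own, with the weight of the others. Same-numbered replicates of different strains deviated together little on average (mean r 0.05 over 192 pairs, -0.40 to 0.50, against -0.02 over 372 pairs of other numbers). Single pairs reached 0.50 for the same number and 0.43 for other numbers. A mean over pairs and features cannot show whether some numbers pair samples, so pairing was not settled. Spots without a value limit *MATALPHA1* and *MF(ALPHA)1* most.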
